A study of Homo sapiens with 21 samples.

Results

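Clone M1 of the SUM149PT breast cancer line was set against the uncloned line it was derived from, Parental. SUM149PT is an established inflammatory breast cancer line without estrogen or progesterone receptor protein. M1 is 1 of 6 clones in the series, and the series title places the lines on the path between the epithelial and the mesenchymal state. Both lines were grown under the same recommended culture conditions, untreated and with no engineered change named in the labels, and poly(A) RNA was sequenced. All 3 M1 libraries and all 3 Parental libraries entered the comparison, 6 of the 21 libraries of the series, chosen by their labels and not by a measured value. M1 is a single clone, so the mesenchymal state and the individual clone cannot be told apart from these libraries alone. M2, the other clone whose name begins with M (3 libraries), was therefore set beside it. The labels do not state whether replicate libraries were grown as independent cultures, and the tests therefore speak only of the variation seen among them, which may be technical.

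Epithelial cells are held in sheets by adherens junctions, tight junctions and desmosomes and carry keratin filaments, while mesenchymal cells carry vimentin, lie singly and build collagen-rich matrix. In the epithelial-mesenchymal transition the repressors ZEB1, ZEB2, SNAI1 and SNAI2 bind short CACCTG motifs in promoters of junction genes and silence them. ZEB1 and ZEB2 are in turn held down by microRNAs of the miR-200 family and by miR-205, which ZEB factors repress, so that each side of this loop excludes the other. Breast cancer cells can sit at different points of this axis, and the mesenchymal end is linked to invasion.

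The libraries held 37474154, 46571768 and 42373975 expected counts in M1 and 36237466, 24602417 and 26966741 in Parental. Mean effective length, the transcript length the counting program credits after fragment ends are allowed for, was 2212, 2203 and 2017 bases in M1 and 2033, 2059 and 2095 bases in Parental, so M1 replicate 3 stood apart from M1 replicates 1 and 2. The same held in other clones, with 2192, 2167 and 2020 bases in M2, 2169, 2159 and 1968 in EM1, 2097, 2153 and 1977 in EM2 and 2193, 2176 and 1985 in EM3. Clone E had 1964, 1970 and 1956 bases. M1 replicates 1 and 2 lay above every Parental library and M1 replicate 3 below. The defining markers went with the labels. The M1 libraries had VIM at 2168 to 3097 TPM and CDH1 at 0.05 to 0.12 TPM, and the Parental libraries had VIM at 65.1 to 162 TPM and CDH1 at 20.2 to 63 TPM. TPM is a level scaled to transcript length and to the library's total. In bulk RNA, fewer cells of a type and less RNA per cell cannot be told apart, and Parental is an uncloned population.

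M1 differed from Parental in 5052 of 18633 genes tested (27.1%; edgeR quasi-likelihood test, Benjamini-Hochberg (BH) adjusted p under 0.05), with 2436 higher (13.1%) and 2616 lower (14%) and a median log2 fold change of -0.02. In 18.6% of the genes every M1 library lay above every Parental library, and in 19.3% every M1 library lay below, by CPM, a library-scaled count. Higher genes made up 48.2% of the calls from counts and 60.3% of the calls where log2(TPM + 1) was tested. That test covered 13889 genes averaging at least 1 TPM, and their median log2 fold change lay 0.12 above that from counts. Without this TPM filter the median lay 0.02 above, and 62.7% of the calls were higher. A gene could pass the low-count filter through any line in which it was high, so the counts and medians given below for gene lists describe the genes tested and not every list member. Each list count against Parental is to be read beside the 13.1% higher and 14% lower of all genes. For M1 against Parental, no fold is given for a gene with at most 3 reads in one of these lines.

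Host transcripts of miR-200c, miR-141 and miR-205 were detected in Parental and not in M1, and the sequences of these microRNAs are shown here. MIR200CHG, the primary transcript of miR-200c and miR-141 (chr12:6963246-6964447, plus strand, GRCh38), had no count in any M1 library and stood at 13.9, 23.9 and 20.3 TPM in Parental. These Parental levels rest on 30, 36 and 29 reads, and the transcript averaged 0.537 CPM over the 6 libraries. MIR205HG, the transcript that carries miR-205 (chr1:209428820-209432838, plus strand), had no count in M1 and stood at 7.92, 13.4 and 8.75 TPM in Parental. Both host transcripts were chosen after their values were seen. Mature microRNAs are not captured by poly(A) selection and were not measured. Their sequences, from RefSeq on GRCh38.p14, are shown with the seed, bases 2 to 8, in capitals, because the seed is what pairs with a target.
hsa-miR-200c-3p (chr12:6963742-6963764, plus strand): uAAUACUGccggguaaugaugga
hsa-miR-141-3p (chr12:6964155-6964176, plus strand): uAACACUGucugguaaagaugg
hsa-miR-205-5p (chr1:209432166-209432187, plus strand): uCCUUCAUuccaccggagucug
The seed AAUACUG is shared with miR-200b-3p and miR-429 and the seed AACACUG with miR-200a-3p, all 3 encoded on chromosome 1, whose host transcripts were not analysed here.

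ZEB1, a target and repressor of these microRNAs in the loop described above, stood at 28, 40 and 32 TPM in M1, against 0.26, 0.11 and 0.09 TPM in Parental. The groups did not overlap, and the log2 fold change was 7.56 ± 0.53 (SE; edgeR, adjusted p = 7.11e-09). ZEB2, its paralog, stood at 19.2, 18.5 and 13.4 TPM in M1, against 2.58, 1.77 and 3.85 TPM in Parental, and rose by a log2 fold of 2.81 ± 0.45 (SE; edgeR, adjusted p = 0.000117). The longest annotated 3′UTR of ZEB1 (2549 bases, GENCODE 29) held 6 matches to CAGTATT, the complement of the miR-200c seed, 3 to CAGTGTT, that of the miR-141 seed, and 1 to ATGAAGG, that of the miR-205 seed. The longest ZEB2 3′UTR (5370 bases) held 5 matches to CAGTATT and 4 to CAGTGTT. Examples are printed in the sense of the messenger RNA, with the match in capitals; a match describes letters and not a binding site.
ZEB1, chr10:31527625-31527647, plus strand: tatcttatCAGTATTatcactct
ZEB1, chr10:31528038-31528060, plus strand: atcagaatCAGTGTTtgtgattg
ZEB2, chr2:144389045-144389067, minus strand: ccatacatCAGTATTtttattat
Across the 14071 genes tested that have an annotated 3′UTR, 22.8% of the 632 genes with at least 2 CAGTATT matches were called higher in M1 and 10.1% lower. Among the 11441 genes with no match these shares were 14.2% and 15.7%. Median 3′UTR lengths were 4468 and 1075 bases in these classes, so genes with more matches also had longer 3′UTRs, and whether this accounts for the shares was not tested. All 14071 genes together had 15.1% higher and 14.9% lower.

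The motif CACCTG, read on either strand as CACCTG or CAGGTG, was counted in the 250 bases before each RefSeq gene start for which a window was available. It occurred in 17.5% of all 35116 windows and in 7 of 16 windows (43.8%) of the 13 tight and adherens junction genes that have one. The other junction genes, CDH1 and EPCAM among them, had no window, and genes with several starts, such as CLDN7, counted once per start. The motif occurred in 4 of 10 windows (40.0%) of 8 desmosome genes. It occurred in 4 of 24 windows (16.7%) of 12 epithelial transcription and splicing regulators, a list that was also mostly lower in M1. Windows of a tight junction gene and of a gene that rose are shown. CLDN7 and VIM were chosen by name, and CRB3 was chosen after its match count of 5 was seen. Capitals mark the matches, and sequences read 5′ to 3′ on the strand of the gene (GRCh38.p14).
CLDN7, the second of its 2 annotated starts, chr17:7262479-7262728, minus strand, 4 matches: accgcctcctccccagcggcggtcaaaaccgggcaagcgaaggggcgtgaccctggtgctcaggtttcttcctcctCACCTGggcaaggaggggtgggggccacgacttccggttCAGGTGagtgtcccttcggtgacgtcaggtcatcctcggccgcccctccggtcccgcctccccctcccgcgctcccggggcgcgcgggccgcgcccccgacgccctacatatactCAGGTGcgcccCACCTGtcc
CRB3, chr19:6464021-6464270, plus strand, 5 matches: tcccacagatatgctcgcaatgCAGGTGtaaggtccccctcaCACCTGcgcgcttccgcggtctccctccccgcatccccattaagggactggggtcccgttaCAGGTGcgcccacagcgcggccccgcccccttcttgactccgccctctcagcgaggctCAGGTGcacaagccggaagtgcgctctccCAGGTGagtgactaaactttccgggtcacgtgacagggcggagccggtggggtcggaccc
VIM, chr10:17227991-17228240, plus strand, 0 matches: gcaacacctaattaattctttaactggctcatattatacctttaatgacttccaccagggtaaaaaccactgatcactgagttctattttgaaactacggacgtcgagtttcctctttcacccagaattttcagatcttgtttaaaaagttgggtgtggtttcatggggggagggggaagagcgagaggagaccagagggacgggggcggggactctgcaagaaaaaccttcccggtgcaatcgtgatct
The first CLDN7 start and the CLDN4 window held 0 matches. ZEB1 had 7 annotated starts, 2 of them with a match. Whether a factor binds there was not measured.

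**Figure D1:**
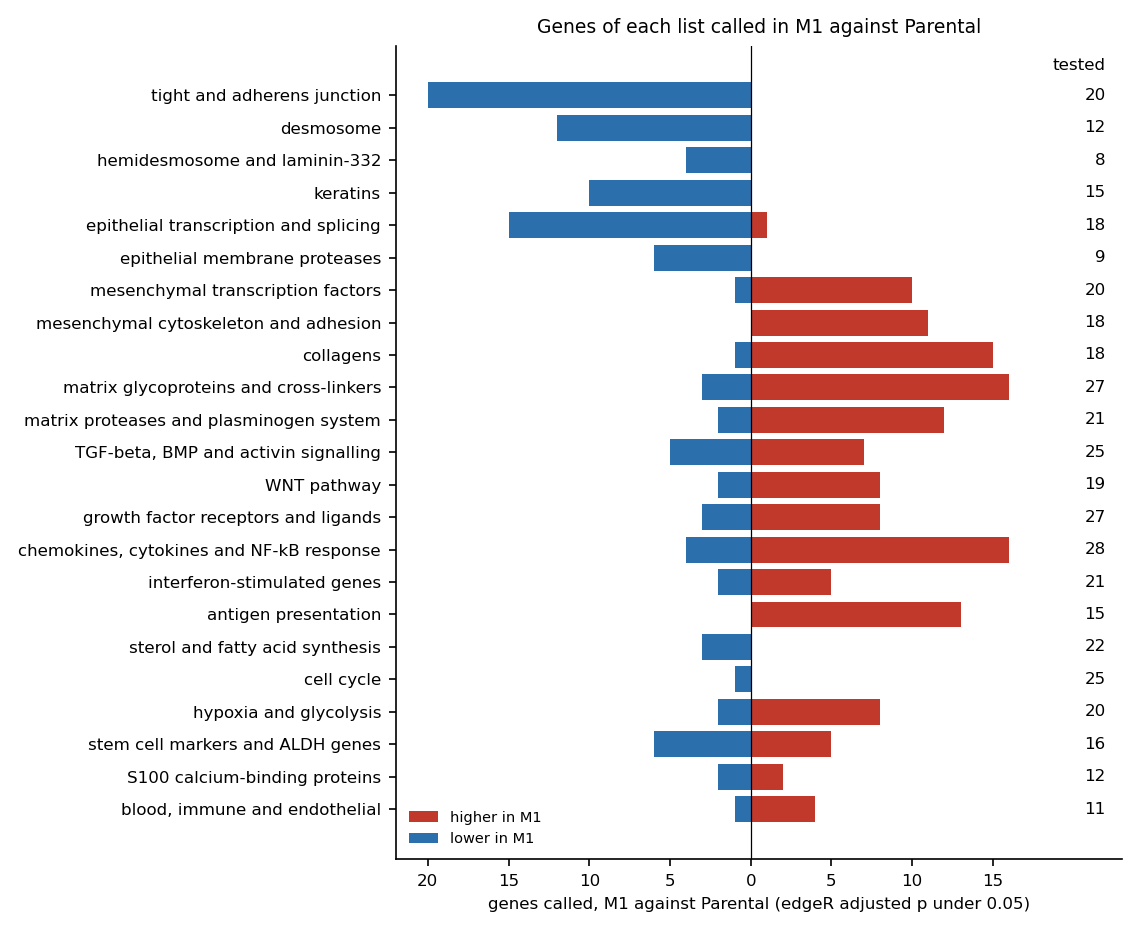
Number of genes called higher or lower in M1 against Parental in each gene list, out of those tested (edgeR, adjusted p under 0.05, 3 libraries a line). All 20 tight and adherens junction genes and all 12 desmosome genes were lower, and 13 of 15 antigen presentation genes and 15 of 18 collagen genes were higher.

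Cell junction genes were lower in M1. All 20 tight and adherens junction genes were tested and all 20 were lower, beside 14% of all genes, with a median log2 fold change of -5.17 beside -0.02 over all genes. CDH1, encoding E-cadherin, the cadherin of epithelial adherens junctions, had 0.12, 0.07 and 0.05 TPM in M1, against 34.2, 20.2 and 63 TPM in Parental. That was a log2 fold change of -10.34 ± 0.88 (SE; edgeR, adjusted p = 6.3e-08), estimated from 12 reads in M1. EPCAM, an epithelial adhesion molecule, had 3.87, 1.51 and 0.56 TPM in M1, against 380, 260 and 444 TPM in Parental (log2 fold change -7.92 ± 0.45; edgeR, adjusted p = 5.36e-10). CRB3, a Crumbs polarity protein that places the apical membrane, had 0.05, 0.02 and 0.1 TPM in M1, against 8.58, 7.1 and 18.8 TPM in Parental. In these genes no M1 library overlapped a Parental library. Other members kept more of their message. CLDN7, a claudin of the tight junction strand, kept 26.4, 15.5 and 26.9 TPM in M1, against 203, 180 and 264 TPM in Parental, and fell by 3.45 ± 0.39 on the log2 scale (SE; edgeR, adjusted p = 2.12e-06). The claudin CLDN4, by contrast, had 0.04, 0.1 and 0.02 TPM in M1, against 7.49, 10.2 and 23.5 TPM in Parental. The other extreme was TJP3, a tight junction scaffold, which had no count in M1 and 0.7, 2.5 and 3.96 TPM in Parental.

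Desmosomes tie the keratin filaments of neighbouring cells together. All 12 desmosome genes were tested and all 12 were lower in M1, with a median log2 fold change of -5.05. DSP, encoding desmoplakin, which links the plaque to keratins, had 0.42, 0.33 and 0.36 TPM in M1, against 37.7, 53.5 and 60.7 TPM in Parental (log2 fold change -7.23 ± 0.39; edgeR, adjusted p = 2.94e-10). The desmosomal cadherin DSC3 stood at 0.07, 0.05 and 0.03 TPM in M1, against 15.9, 23.9 and 26.1 TPM in Parental, while the cadherin DSG2 kept 13.8, 11.7 and 6.85 TPM, against 33, 45.2 and 77.2 TPM. The drops thus ranged widely, and the smallest in this list were those of EVPL, a plakin of the cornified envelope (log2 fold change -1.22), and PERP, a desmosomal membrane protein (log2 fold change -1.32). The PERP call ended where log2(TPM + 1) was tested (limma-trend, adjusted p = 0.0536). Of the 8 genes of hemidesmosomes and laminin-332, which anchor basal cells to the basement membrane, 4 were lower (2 where log2(TPM + 1) was tested), with a median of -1.16. LAMA3, a laminin chain, had 9.18, 14 and 10.9 TPM in M1, against 537, 50.7 and 182 TPM in Parental, so Parental replicate 1 was far above its partners. The laminin-332 chain LAMB3 did not pass the test (edgeR, adjusted p = 0.65), and its libraries overlapped.

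Keratins were lower in part. Of 15 tested out of 16, 10 were lower, with a median of -3.53. KRT5, the basal keratin of breast ducts, had 40.5, 30.8 and 28.3 TPM in M1, against 333, 535 and 304 TPM in Parental (log2 fold change -3.72 ± 0.45; edgeR, adjusted p = 4.89e-06). KRT19, a keratin of simple epithelia, had 4.56, 4.3 and 19.4 TPM in M1, against 369, 355 and 594 TPM in Parental. These calls did not extend to every abundant keratin. KRT7, another simple keratin, was high in both lines, at 1501, 1805 and 2118 TPM in M1 and 1545, 938 and 2326 TPM in Parental. Its groups overlapped (log2 fold change -0.26 ± 0.29; edgeR, adjusted p = 0.572). KRT81, a hair keratin, had 424, 456 and 704 TPM in M1 and 559, 438 and 902 TPM in Parental, and KRT17, a keratin of basal and stressed cells, 57.5, 167 and 273 TPM in M1 and 287, 147 and 102 TPM in Parental. Neither passed the test (edgeR, adjusted p = 0.62 and 0.984). KRT8, the type II keratin of simple epithelia, was lower in M1, at 263, 355 and 469 TPM, against 1320, 562 and 1186 TPM in Parental, a call that ended where log2(TPM + 1) was tested (limma-trend, adjusted p = 0.0505).

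**Figure D2:**
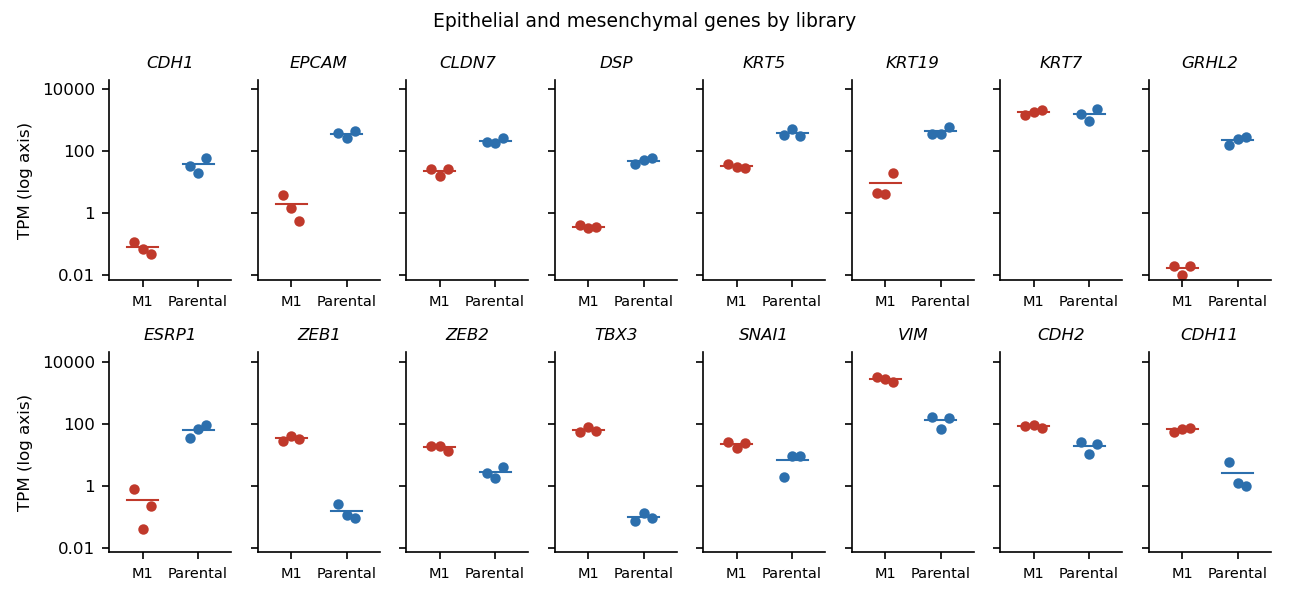
Level in TPM (log axis) of epithelial and mesenchymal genes in each of the 3 M1 and 3 Parental libraries, with dots for libraries and horizontal lines for means. CDH1 lies at 0.05 to 0.12 TPM in M1 and 20.2 to 63 in Parental, VIM at 2168 to 3097 in M1 and 65.1 to 162 in Parental, and KRT7 overlaps.

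Most epithelial regulators were lower in M1. Of 18 tested transcription and splicing regulators out of 20, 15 were lower and 1 was higher, with a median of -4.34. GRHL2, a grainyhead factor that activates CDH1 and other junction genes, had 0.02, 0.01 and 0.02 TPM in M1, against 156, 250 and 295 TPM in Parental (log2 fold change -10.92 ± 0.49; edgeR, adjusted p = 4.23e-11, on 5 reads in M1). Its rounded counts were 3, 1 and 1 in M1, against 2894, 2036 and 2861 in Parental, a narrower ratio than that of TPM. TPM also takes in the effective length credited to the gene in each library. OVOL2, a repressor of ZEB1, had 0.04, 0 and 0.06 TPM in M1, against 7.93, 7.59 and 14.1 TPM in Parental. ESRP1, which sets the epithelial splice forms of CD44 and FGFR2, had 0.79, 0.04 and 0.22 TPM in M1, against 33.8, 67.8 and 89.6 TPM in Parental, and its paralog ESRP2 had 2.36, 1.54 and 1.53 TPM, against 21.6, 19.9 and 15.4 TPM. In each of these 4 genes the M1 libraries all lay below the Parental ones. GATA3 and FOXA1, factors of the luminal breast lineage, fell by 2.74 and 3.44 on the log2 scale. The exception was TFAP2C, an AP-2 factor of breast and placenta, with 32.9, 54.4 and 52.1 TPM in M1, against 20.1, 13.9 and 23.8 TPM in Parental (log2 fold change 1.12 ± 0.30; edgeR, adjusted p = 0.00902). That call ended without Parental replicate 2 (edgeR, adjusted p = 0.057). Among membrane serine proteases and their inhibitors, which act on epithelial surfaces, 6 of 9 tested out of 12 were lower, with a median of -4.63, or -3.43 with KLK5 and KLK6, both without a count in M1, set to the bound that 3 reads allow. SPINT2, an inhibitor of matriptase, had 3.29, 1.19 and 1.8 TPM in M1, against 495, 349 and 505 TPM in Parental, and ST14, matriptase itself, had 0.17, 0.2 and 0.13 TPM, against 43.1, 27.8 and 51.2 TPM.

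Among 20 mesenchymal transcription factors, all tested, 10 were higher, 1 was lower and 9 did not pass, with a median of 1.62. Beside ZEB1 and ZEB2, the T-box repressor TBX3 had 52.9, 78.3 and 59.2 TPM in M1, against 0.07, 0.13 and 0.09 TPM in Parental (log2 fold change 8.47 ± 0.71; edgeR, adjusted p = 1.6e-07). FOXC2, a forkhead factor of mesenchyme, had 8.15, 11.8 and 10.9 TPM in M1 and no count in Parental. An antisense transcript, FOXC2-AS1, overlaps FOXC2 and had 6.25, 3.39 and 12.2 TPM in M1 and no count in Parental, and the strand setting of the counting is not given in the sources used here. TWIST2, a helix-loop-helix factor, had 23.6, 21.1 and 16.8 TPM in M1, against 4.01, 3.41 and 5.41 TPM in Parental. M1 thus carried several families of these factors. The homeobox factor PRRX1 had 16.5, 10.4 and 6.1 TPM in M1, against 0.33, 0.43 and 1.24 TPM in Parental. SNAI1, the Snail repressor, had 26, 16.9 and 24.1 TPM in M1 and 1.95, 8.69 and 9.21 TPM in Parental. These libraries did not overlap, yet SNAI1 did not pass (edgeR, adjusted p = 0.163). It passed where only the libraries of both lines were fitted (edgeR, adjusted p = 0.0262). SNAI2, or Slug, rose (log2 fold change 1.70; edgeR, adjusted p = 0.0294), a call that ended with the libraries of both lines alone (adjusted p = 0.145) and without M1 replicate 2 (0.0812), Parental replicate 2 (0.068) or Parental replicate 3 (0.0897). SOX9, a factor of progenitor cells, was the gene that fell, at 6.98, 4.62 and 6.44 TPM in M1, against 14.4, 20.3 and 22.5 TPM in Parental, and its call ended without M1 replicate 2 (edgeR, adjusted p = 0.0543).

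In the mesenchymal cytoskeleton and adhesion list, 11 of 18 tested genes out of 20 were higher, with a median of 1.83. VIM, encoding vimentin, had 3097, 2728 and 2168 TPM in M1, against 162, 65.1 and 155 TPM in Parental (log2 fold change 4.20 ± 0.33; edgeR, adjusted p = 2.03e-08). CDH2, encoding N-cadherin, was present in both lines, at 82, 89.5 and 74.4 TPM in M1 and 25.5, 10.3 and 22.8 TPM in Parental, and rose by a log2 fold of 2.00 ± 0.41 (SE; edgeR, adjusted p = 0.00124). CDH11, a cadherin of fibroblasts and bone, had 54.2, 68.1 and 71.8 TPM in M1, against 5.78, 1.21 and 0.94 TPM in Parental. FAP, a membrane protease of activated fibroblasts, had 92.5, 74.7 and 33.8 TPM in M1, against 11.7, 6.41 and 13.4 TPM in Parental. In all 4 of these genes the M1 libraries lay above the Parental ones. Contractile and caveolar genes were mixed. TPM1, a tropomyosin, had 162, 277 and 170 TPM in M1, against 17.1, 21.6 and 25.5 TPM in Parental, whereas CAV1, caveolin, had 560, 481 and 441 TPM in M1 and 506, 272 and 369 TPM in Parental and did not pass (edgeR, adjusted p = 0.479). S100A4, often used as a fibroblast marker, did not pass either, at 36.5, 27.4 and 23.9 TPM in M1 and 35.3, 28.4 and 55.4 TPM in Parental.

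Most collagen genes rose in M1. Of 18 collagens, all tested, 15 were higher and 1 was lower, with a median of 2.88. COL1A1, the main chain of type I collagen, had 549, 789 and 641 TPM in M1, against 11, 3.57 and 19.2 TPM in Parental (log2 fold change 6.17 ± 0.73; edgeR, adjusted p = 4e-06). Its partner chain COL1A2 stayed far lower, at 2.68, 3.67 and 4.81 TPM in M1, against 0.2, 0 and 0.04 TPM in Parental. Type I collagen is usually built from both chains, and the COL1A1 level exceeded that of COL1A2 in every library of both lines. COL6A3, a chain of the microfibrillar type VI collagen, had 82.6, 101 and 73.6 TPM in M1, against 1.5, 1.16 and 1.69 TPM in Parental. COL5A1, which starts fibrils of type I collagen, had 52.7, 86 and 37.5 TPM in M1, against 0.33, 0.18 and 0.68 TPM in Parental. COL7A1, of the anchoring fibrils under the epidermis, had 95.6, 228 and 226 TPM in M1, against 12.1, 8.43 and 6.5 TPM in Parental. Fibrillar, microfibrillar and anchoring types were thus all represented among the genes that rose. COL4A1, of basement membranes, had 194, 321 and 117 TPM in M1, against 20.7, 9.04 and 20.5 TPM in Parental. COL4A6, another basement membrane chain, was the collagen that fell (log2 fold change -1.27; edgeR, adjusted p = 0.03), and that call ended without M1 replicate 1 (adjusted p = 0.0805), M1 replicate 2 (0.0693), M1 replicate 3 (0.0772) or Parental replicate 2 (0.132), and where log2(TPM + 1) was tested (limma-trend, 0.0628).

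Of 27 matrix glycoproteins, proteoglycans and cross-linkers tested out of 28, 16 were higher and 3 lower (1 lower without M1 replicate 1 or M1 replicate 3 and where log2(TPM + 1) was tested), with a median of 2.02. FN1, encoding fibronectin, had 3942, 4470 and 4344 TPM in M1, against 721, 270 and 630 TPM in Parental (log2 fold change 2.89 ± 0.30; edgeR, adjusted p = 9.93e-07). DCN, decorin, a proteoglycan that binds collagen fibrils, had 1752, 2443 and 1807 TPM in M1, against 44, 58.5 and 35.3 TPM in Parental (log2 fold change 5.66 ± 0.46; edgeR, adjusted p = 3.63e-08). In both genes the lowest M1 library was above the highest Parental library. FBN1, fibrillin, had 30, 35 and 24.6 TPM in M1, against 1.38, 2.55 and 1.39 TPM in Parental, and SPARC, a collagen-binding matrix protein, 15.5, 47.9 and 35.7 TPM, against 0.59, 0.12 and 0.93 TPM. The cross-linking enzyme LOXL1 had 241, 230 and 170 TPM in M1, against 46.7, 46.6 and 38.8 TPM in Parental. THBS1, thrombospondin, did not pass and its libraries overlapped, at 1064, 3411 and 4673 TPM in M1 and 1508, 569 and 530 TPM in Parental. It passed as higher without the low-count filter (edgeR, adjusted p = 6.53e-08). The log2 fold change was 1.58 there and 1.51 with the filter, so that gain came with almost no change of the fold. CTHRC1, a secreted collagen triple helix protein, fell, with 0.56, 0.72 and 0.2 TPM in M1, against 2.46, 3.14 and 3.35 TPM in Parental.

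Matrix proteases and their inhibitors were mostly higher. Of 21 tested out of 22, 12 were higher and 2 lower, with a median of 2.42. MMP13, a collagenase that cuts fibrillar collagen, had 191, 298 and 243 TPM in M1, against 0.14, 0.07 and 0.07 TPM in Parental (log2 fold change 11.22 ± 0.60; edgeR, adjusted p = 1.01e-09). MMP2, a gelatinase, had 177, 219 and 118 TPM in M1, against 13.4, 12 and 15.1 TPM in Parental, and MMP14, the membrane protease that activates it, 59.9, 108 and 107 TPM, against 6.05, 8.45 and 12.4 TPM. No library of one line overlapped the other line in these 3 genes. The direction was opposite for MMP7, matrilysin, an epithelial protease, with 0.1, 0.08 and 0.05 TPM in M1, against 38.8, 155 and 38.5 TPM in Parental. The inhibitor TIMP2 had 75.3, 76.7 and 69.8 TPM in M1, against 5.34, 7.6 and 9.52 TPM in Parental, whereas TIMP1 did not pass, at 879, 1223 and 1605 TPM in M1 and 1031, 467 and 670 TPM in Parental. TIMP1 passed as higher with mean effective length as a covariate (edgeR, adjusted p = 0.00454).

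Secreted signals and their receptors were mixed. In the TGF-beta, BMP and activin list, 7 of 25 tested genes out of 26 were higher and 5 lower, with a median of 0.73 (12 higher without the low-count filter, and 3 lower without M1 replicate 2). All genes together had 13.1% higher and 14% lower. GREM1, a secreted BMP antagonist, had 680, 1793 and 1721 TPM in M1, against 105, 13.9 and 23.8 TPM in Parental (log2 fold change 4.61 ± 0.93; edgeR, adjusted p = 0.00102). LTBP1, which holds latent TGF-beta in the matrix, had 31.6, 43 and 49.2 TPM in M1, against 1.36, 1.3 and 1.55 TPM in Parental, and the ligand TGFB1 41.7, 44.8 and 52.1 TPM, against 19, 16.3 and 18.2 TPM. Ligand, carrier and antagonist all stood above Parental in each M1 library. The BMP ligand BMP4 had 2.72, 1.82 and 2.17 TPM in M1, against 9.04, 5.63 and 3.09 TPM in Parental, and fell, as did ID2, ID3 and SMAD6, all known as BMP targets. Their relative ID1 did not pass (edgeR, adjusted p = 0.0571) but was lower in the DESeq2 Wald test (0.0274). The ligand BMP2 leaned the other way without passing (log2 fold change 2.47; edgeR, adjusted p = 0.0646). BMP2 passed as higher in the DESeq2 Wald test (0.0388) and where log2(TPM + 1) was tested (limma-trend, 0.0212). ID2 had 7.8, 4.18 and 1.25 TPM in M1, against 15.7, 21.6 and 45.7 TPM in Parental, and ID3 79, 52.7 and 82.4 TPM in M1, against 98.5, 174 and 307 TPM in Parental. The ID3 call ended without M1 replicate 2 (edgeR, adjusted p = 0.0686) or Parental replicate 3 (0.0679), and the SMAD6 call without M1 replicate 2 (0.0574) or M1 replicate 3 (0.0576). The SMAD6 call also ended where log2(TPM + 1) was tested (limma-trend, adjusted p = 0.0642).

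For the WNT pathway, 8 of 19 tested genes out of 22 were higher and 2 lower (4 lower with mean effective length as a covariate), with a median of 0.84. Beside the 13.1% higher and 14% lower of all genes, the share of lower genes was no larger. WNT5A, a ligand of the noncanonical branch, had 474, 515 and 406 TPM in M1, against 7.07, 8.21 and 13.8 TPM in Parental (log2 fold change 5.19 ± 0.63; edgeR, adjusted p = 5.23e-06), and its relative WNT5B had 11.2, 15.3 and 13 TPM, against 0.33, 0 and 0.64 TPM. For both, every M1 library was above every Parental library. WNT10A, a canonical ligand, had 0.22, 0.33 and 0.3 TPM in M1, against 6.46, 3.76 and 6.46 TPM in Parental, and SFRP1, a secreted WNT antagonist, 12.5, 8.93 and 4.94 TPM, against 36.7, 54.4 and 67.1 TPM. The receptor ROR2, through which WNT5A can act, did not pass, at 8.46, 6.24 and 8.39 TPM in M1 and 14.2, 16 and 17.1 TPM in Parental (edgeR, adjusted p = 0.0619). ROR2 passed as lower where log2(TPM + 1) was tested (limma-trend, adjusted p = 0.00415), in the DESeq2 Wald test (0.0347) and in edgeR without Parental replicate 1 (0.0265) or with mean effective length as a covariate (0.0154).

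Of 27 growth factor receptors, ligands and binding proteins tested out of 29, 8 were higher and 3 lower, with a median of 0.45 (13 higher without the low-count filter). Beside the 13.1% higher and 14% lower of all genes, the share of lower genes was no larger. ERBB3, the neuregulin receptor, had 0.48, 0.16 and 0.44 TPM in M1, against 7.18, 22.4 and 22 TPM in Parental (log2 fold change -6.67 ± 0.59; edgeR, adjusted p = 1.13e-07). EGFR did not pass, at 65.3, 67.3 and 43.5 TPM in M1 and 46.8, 59.5 and 98.1 TPM in Parental (edgeR, adjusted p = 0.953). FGFR1 had 22.1, 34.6 and 46.7 TPM in M1, against 3.69, 1.96 and 6.83 TPM in Parental, whereas FGFR2 had 0.02, 0.14 and 0.08 TPM, against 0.93, 1.2 and 1.15 TPM. The FGF receptors thus moved in opposite directions. AXL, a receptor tyrosine kinase of mesenchymal cells, had 86.9, 118 and 132 TPM in M1, against 36.5, 14.3 and 22.8 TPM in Parental. PDGFRA, the PDGF receptor of mesenchymal cells, had 0.99, 1.24 and 0.46 TPM in M1, against 0, 0.04 and 0 TPM in Parental. IGFBP7, a secreted binding protein, had 123, 150 and 77.2 TPM in M1, against 0.35, 0.14 and 0.44 TPM in Parental (log2 fold change 8.49 ± 0.63; edgeR, adjusted p = 1.19e-08).

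Chemokine and cytokine messages were high in M1. Of 28 genes of this list tested out of 31, 16 were higher and 4 lower, with a median of 3.24. CXCL1, a neutrophil attractant, had 2085, 2384 and 2419 TPM in M1, against 169, 90.1 and 58.6 TPM in Parental (log2 fold change 4.20 ± 0.60; edgeR, adjusted p = 3.66e-05). CXCL6, of the same family, had 405, 205 and 269 TPM in M1, against 1.95, 1.26 and 1.18 TPM in Parental. CXCL8, or interleukin 8, had 1311, 2436 and 2564 TPM in M1, against 190, 11.6 and 23.3 TPM in Parental (log2 fold change 4.52 ± 1.40; edgeR, adjusted p = 0.0248). Parental replicate 1 was well above the other 2, and the CXCL8 call ended without Parental replicate 2 (edgeR, adjusted p = 0.0872) or 3 (0.0891) and with the libraries of both lines alone (0.0663). CCL2, a monocyte attractant, had 28.5, 31.3 and 18.6 TPM in M1 and no count in Parental. IL6 had 85.6, 325 and 465 TPM in M1, against 4.07, 0.53 and 0.47 TPM in Parental, and IL1B 54.2, 267 and 383 TPM, against 2.42, 0.12 and 1.36 TPM. Within M1 both were lowest in replicate 1, and no M1 library overlapped a Parental library. CSF3, the granulocyte growth factor, had 50.8, 72.7 and 169 TPM in M1, against 0.17, 0 and 0.03 TPM in Parental.

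Not every inflammatory gene rose. LCN2, lipocalin, an NF-kB target of epithelial cells, had 2.5, 1.64 and 3.15 TPM in M1, against 187, 315 and 156 TPM in Parental (log2 fold change -6.91 ± 0.92; edgeR, adjusted p = 1.47e-05). IL18 had 15.2, 15.1 and 6.84 TPM in M1, against 88.9, 86.7 and 123 TPM in Parental, and IL1RN, the interleukin 1 receptor antagonist, 0.02, 0.04 and 0 TPM, against 1.84, 1.61 and 4.48 TPM. NFKBIA, the feedback inhibitor of NF-kB, did not pass, at 86.6, 75.7 and 54.3 TPM in M1 and 52.4, 46.9 and 56.5 TPM in Parental.

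**Figure D3:**
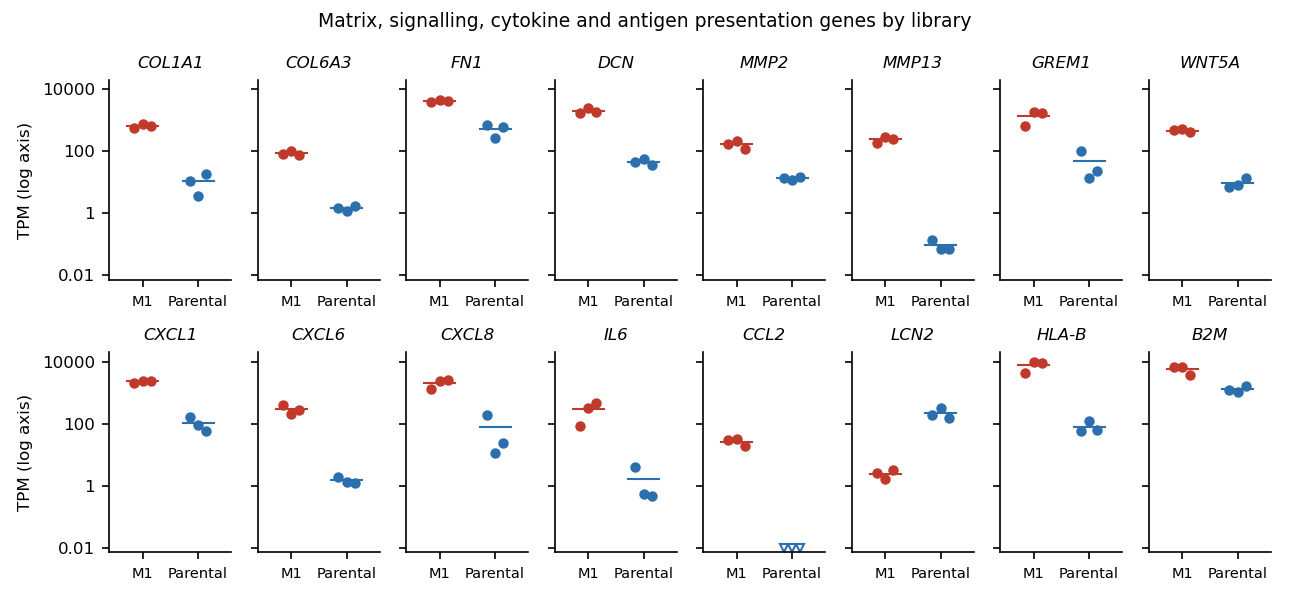
Level in TPM (log axis) of secreted, matrix protease and MHC class I genes in the 3 M1 and 3 Parental libraries, with dots for libraries, lines for means and open triangles for values below 0.01 TPM, such as CCL2 in Parental. CXCL1 lies at 2085 to 2419 TPM in M1 and 58.6 to 169 in Parental, and HLA-B at 4155 to 9695 in M1 and 58.9 to 119 in Parental.

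MHC class I shows peptides to cytotoxic T cells. Of 15 antigen presentation genes, all tested, 13 were higher in M1, beside 13.1% of all genes, with a median of 1.35. HLA-B had 4155, 9695 and 9175 TPM in M1, against 58.9, 119 and 60.8 TPM in Parental, and counts gave a log2 fold change of 4.73 ± 0.34 (SE; edgeR, adjusted p = 9.86e-09). Its expected counts were 7317, 16895 and 16579 in M1, against 427, 319 and 378 in Parental, a narrower ratio than that of TPM, which also takes in the effective length credited to the gene in each library. Reads shared among near-identical HLA genes make the split between them uncertain. B2M, the invariant light chain of class I, is no member of the HLA gene family and had 6851, 6771 and 3684 TPM in M1, against 1194, 1069 and 1653 TPM in Parental (log2 fold change 2.10 ± 0.24; edgeR, adjusted p = 2.92e-06). NLRC5, the transactivator of class I genes, had 12, 9.03 and 10.6 TPM in M1, against 1.91, 3.6 and 2.75 TPM in Parental. In each of these class I genes the M1 libraries all lay above the Parental ones. The immunoproteasome gene PSMB9 had 28.4, 24.3 and 32.6 TPM in M1, against 7.52, 7.19 and 11 TPM in Parental, while TAP2, a subunit of the peptide transporter, did not pass (edgeR, adjusted p = 0.808). The calls of TAP1 and PSMB8 ended without Parental replicate 2 (edgeR, adjusted p = 0.166 and 0.0897) and without M1 replicate 3 (0.0944 and 0.0868). The TAP1 call also ended without M1 replicate 1 (edgeR, adjusted p = 0.0617) or M1 replicate 2 (0.0501), and the PSMB8 call with the libraries of both lines alone (0.0645) and without the low-count filter (0.109).

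Interferon-stimulated genes were mixed. Of 21 tested out of 23, 5 were higher and 2 lower, with a median of 0.65, and the counts ranged over 2 to 8 higher and 0 to 2 lower under the alternatives. Beside the 13.1% higher and 14% lower of all genes, the share of lower genes was no larger. IFI6 had 19.4, 21 and 14.6 TPM in M1, against 1.66, 2.94 and 2.9 TPM in Parental (log2 fold change 2.7 ± 0.38; edgeR, adjusted p = 2.94e-05), and the antiviral enzyme OAS1 1.99, 1.55 and 1.56 TPM, against 0.1, 0.2 and 0.23 TPM.

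Among 25 cell cycle genes tested out of 27, 1 was lower, beside 14% of all genes, the mitotic kinase AURKB, and that call ended whichever of the 6 libraries was left out (edgeR, adjusted p from 0.0503 to 0.149). MKI67, the proliferation marker, had 78.7, 53.5 and 36.2 TPM in M1 and 48.4, 59.1 and 49.8 TPM in Parental (edgeR, adjusted p = 0.838). Of 22 genes of sterol and fatty acid synthesis, all tested, 3 were lower (5 without the low-count filter and 1 where log2(TPM + 1) was tested without a filter), a share near the 14% of all genes. In the hypoxia and glycolysis list 8 of 20 were higher and 2 lower (5 higher without M1 replicate 2 and without Parental replicate 2 or 3, and 1 lower without M1 replicate 1 or Parental replicate 1). All genes together had 13.1% higher and 14% lower, so the share of lower genes in this list was no larger. VEGFA, the vascular growth factor, had 214, 298 and 280 TPM in M1, against 22.2, 26 and 55.9 TPM in Parental, and ADM, adrenomedullin, 120, 126 and 122 TPM, against 8.62, 3.05 and 3.74 TPM. Both secreted factors stood apart from Parental in every M1 library. CA9, a carbonic anhydrase induced by low oxygen, did not pass, at 22.9, 39.1 and 46.4 TPM in M1 and 33.1, 28.4 and 54.8 TPM in Parental.

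Surface markers used to sort breast stem-like cells, CD44 high and CD24 low, were measured in both lines. CD24 had 6.64, 2.38 and 1.12 TPM in M1, against 98.6, 76.8 and 121 TPM in Parental (log2 fold change -5.29 ± 0.99; edgeR, adjusted p = 0.000498). CD44 had 1828, 2626 and 2456 TPM in M1, against 1789, 804 and 939 TPM in Parental (log2 fold change 1.32 ± 0.31; edgeR, adjusted p = 0.00356), with Parental replicate 1 close to M1 replicate 1. Aldehyde dehydrogenase activity is another such marker. ALDH1A1 had 0.09, 0.09 and 0.01 TPM in M1, against 0.91, 1.64 and 1.53 TPM in Parental, and fell, a call that ended where log2(TPM + 1) was tested (limma-trend, adjusted p = 0.0901). ALDH1A3 did not pass, at 27.4, 78.1 and 74 TPM in M1 and 304, 31.6 and 85.6 TPM in Parental (edgeR, adjusted p = 0.0965), and passed without Parental replicate 2 (0.0235) and without the low-count filter (1.96e-06). Its log2 fold change was -1.49 with that filter and -1.41 without it. In the whole list 5 of 16 tested genes out of 19 were higher and 6 lower, with a median of -0.92, beside 13.1% higher and 14% lower of all genes. Of 12 S100 genes tested out of 15, 2 were higher and 2 lower, near the shares of all genes (13.1% and 14%). The higher count was 1 without M1 replicate 1, M1 replicate 3 or Parental replicate 2 and with the libraries of both lines alone, and the lower count was 1 without M1 replicate 1, M1 replicate 2 or Parental replicate 3. S100A14, an epithelial member, had 0.78, 0.48 and 0.07 TPM in M1, against 190, 97.1 and 180 TPM in Parental.

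Beyond the lists, several of the largest protein-coding changes were of genes at or near 0 in one line. FPR1, a formyl peptide receptor of phagocytes, had 65.4, 99 and 145 TPM in M1, against 0.05, 0 and 0.22 TPM in Parental. The potassium channel gene KCNMA1 had 29, 16.4 and 16.6 TPM in M1, against 0, 0.09 and 0 TPM in Parental. CMTM2, a chemokine-like membrane protein, had 66.2, 70.5 and 61.1 TPM in M1 and no count in Parental. In the other direction, TCN1, a vitamin B12 binding protein, had no count in M1 and 19.7, 30.1 and 19.9 TPM in Parental, and A2ML1, a protease inhibitor of keratinised epithelia, had no count in M1 and 6.23, 8.06 and 8.09 TPM in Parental. LAD1, ladinin, an anchoring filament protein, had 0.49, 0.03 and 0.01 TPM in M1, against 151, 54.3 and 111 TPM in Parental (log2 fold change -10.20 ± 0.53; edgeR, adjusted p = 2.34e-10). In all, 24 genes had no count in M1 and at least 1 TPM in every Parental library, 11 of them protein-coding, and 24 had no count in Parental and at least 1 TPM in every M1 library, 15 of them protein-coding. UGT1A6 and UGT1A7, both at 0 in M1, share exons and cannot be separated by counts, and PRR5-ARHGAP8, also at 0, is a readthrough of neighbouring genes.

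The difference between M1 and M2 was tested directly, which equals the difference between their changes against Parental. It called 7674 of 18633 genes (41.2%; edgeR, adjusted p under 0.05), 4136 higher in M1 (22.2%) and 3538 lower (19%). CDH1 averaged 0.08 ± 0.036 TPM in M1 and 0.0533 ± 0.05 TPM in M2 (SD, n = 3 each), ZEB1 33.3 ± 6.09 TPM in M1 and 26.7 ± 6.25 TPM in M2, and VIM 2664 ± 468 TPM in M1 and 2102 ± 552 TPM in M2, and none of the 3 was called. Collagens and secreted factors differed between the clones. Of these, 13 of 18 collagens and 16 of 28 chemokine and cytokine genes were higher in M1 than in M2, and 5 and 2 were lower. COL1A1 averaged 659 ± 121 TPM in M1 and 15.2 ± 3.52 TPM in M2 (log2 difference 5.86), and CXCL1 2296 ± 183 TPM in M1 and 0.457 ± 0.11 TPM in M2 (12.33). For WNT5A the averages were 465 ± 55.3 TPM in M1 and 4.43 ± 2.93 TPM in M2 (6.46), and MMP13 had no count in M2. Some epithelial genes were higher in M1 than in M2, with CLDN7 at 22.9 ± 6.43 TPM in M1 and 0.143 ± 0.15 TPM in M2, KRT5 at 33.2 ± 6.45 and 0.363 ± 0.131 TPM, and KRT81 at 528 ± 154 and 0.5 ± 0.407 TPM. Of the 20 junction genes 8 were higher in M1 than in M2 and 4 lower. Of the 15 antigen presentation genes, 4 were higher in M1 than in M2.

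**Figure D4:**
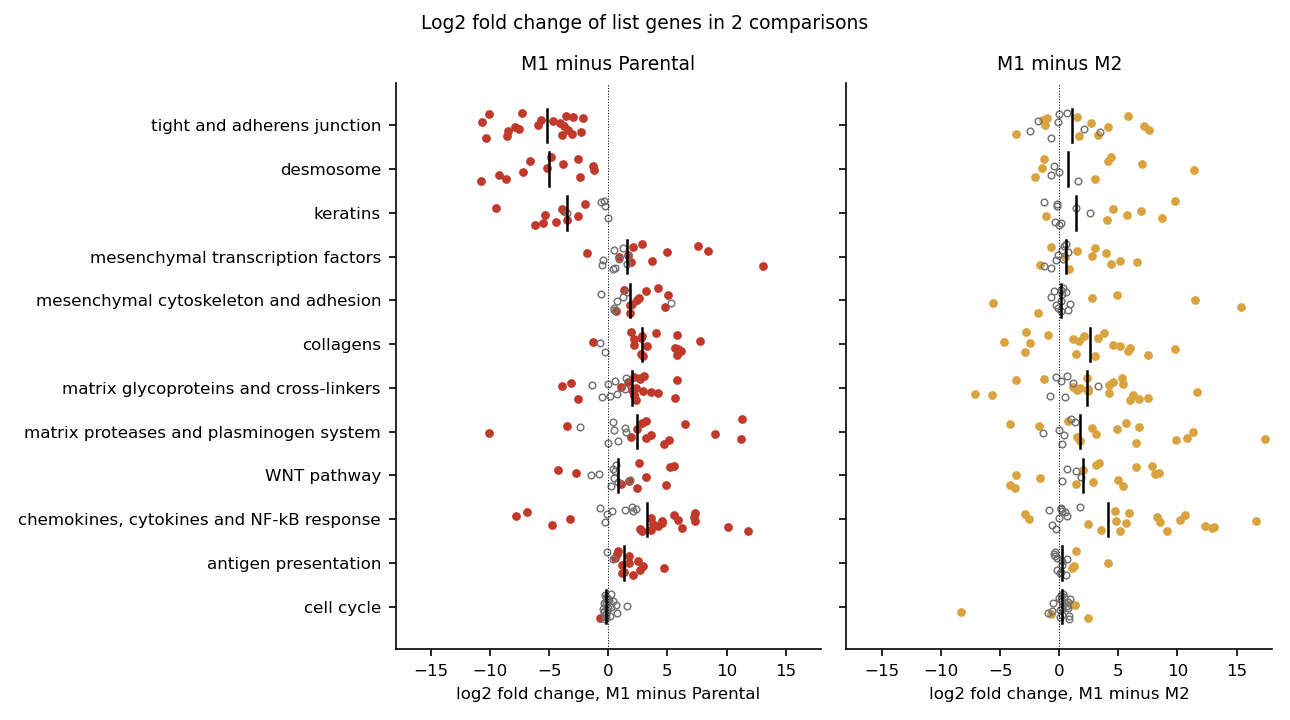
Log2 fold change of list genes in M1 against Parental and in M1 against M2 (edgeR), with filled dots for called genes, open dots for genes not called and a black bar for the list median. Junction genes lie below 0 against Parental with a median of -5.17, and chemokines above 0 with a median of 3.24.

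Across the 7 lines, list means on the log2(TPM + 1) scale placed these differences. The junction list averaged 0.82 ± 0.12 in M1, 0.36 ± 0.08 in M2, 3.73 ± 0.31 in EM1, 3.34 ± 0.25 in EM2, 3.36 ± 0.19 in EM3, 4.26 ± 0.03 in E and 3.73 ± 0.34 in Parental (SD over 3 libraries each). Both M clones were far below the other lines, and the SD ranges of EM1, EM2 and EM3 overlapped that of Parental. The collagen list averaged 5.41 ± 0.27 in M1, 3.72 ± 0.15 in M2, 2.60 ± 0.19 in EM1, 3.52 ± 0.17 in EM2, 3.07 ± 0.19 in EM3, 2.68 ± 0.06 in E and 2.63 ± 0.19 in Parental, so M1 was the highest, M2 and EM2 lay within their spread of each other, and E, EM1 and Parental could not be ordered. For chemokines and cytokines the averages were 4.78 ± 0.43 in M1, 2.13 ± 0.38 in M2, 3.04 ± 0.54 in EM1, 2.92 ± 0.78 in EM2, 3.24 ± 0.42 in EM3, 3.33 ± 0.09 in E and 2.63 ± 0.39 in Parental, with M1 highest and the other lines overlapping in part. Antigen presentation averaged 6.38 ± 0.11 in M1 and 5.81 ± 0.07 in M2, against 4.70 ± 0.19 in EM1, 4.81 ± 0.22 in EM2, 5.09 ± 0.05 in EM3, 5.01 ± 0.06 in E and 4.68 ± 0.25 in Parental. This list was higher in both M clones than in the other lines.

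**Figure D5:**
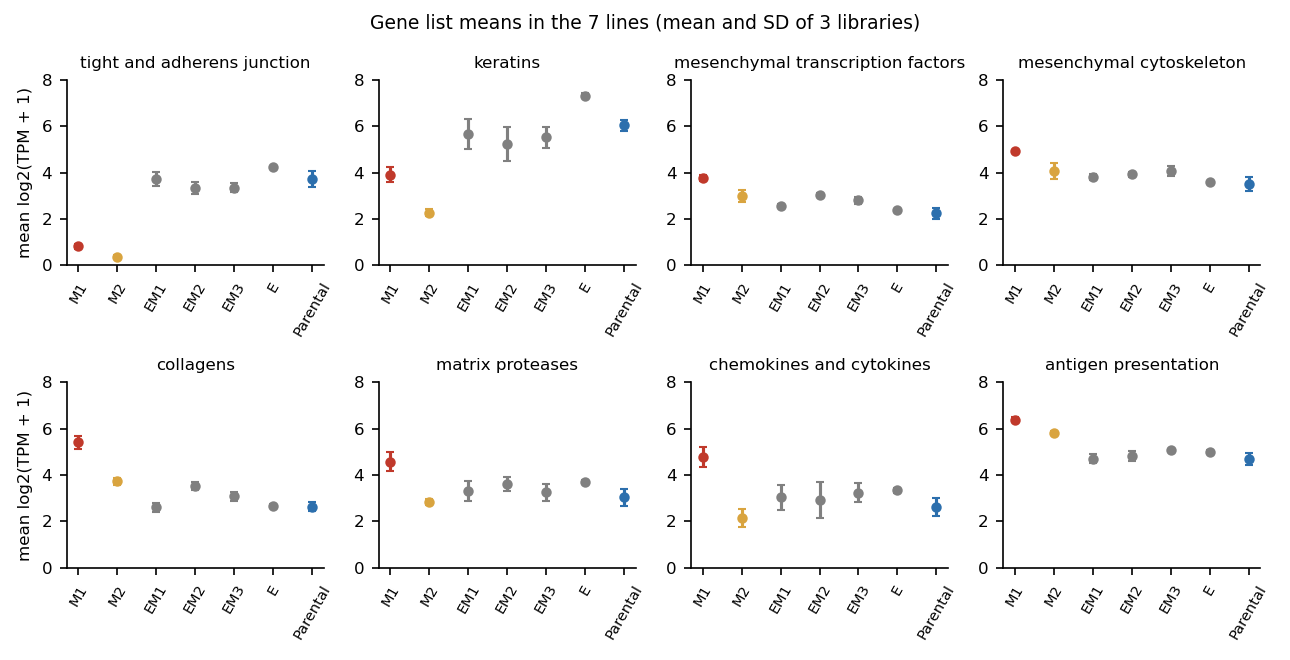
Mean of log2(TPM + 1) over the genes of each list in the 7 lines, as mean ± SD of 3 libraries, with M1 at the left and Parental at the right. The junction list is lowest in M1 (0.82) and M2 (0.36), and the collagen and chemokine lists are highest in M1 (5.41 and 4.78).

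Markers of blood, immune and endothelial cells were measured beside these results. Of 22 such genes 11 passed the filter, with 4 higher, CD68, CSF1R, PECAM1 and TEK, and 1 lower, HBA1. For CSF1R, PECAM1 and TEK the adjusted p was 0.00181, 0.00159 and 0.01 (edgeR). CSF1R summed to 168 reads in the M1 libraries and 24 in the Parental libraries. The summed level of the list ranged over 161 to 231 TPM in M1 and 59.9 to 88.4 TPM in Parental, nearly all of it CD68, a lysosomal gene that many cell types express, at 154, 198 and 226 TPM in M1, against 78, 54 and 78.9 TPM in Parental. The CD68 call ended without M1 replicate 3 (edgeR, adjusted p = 0.0742), Parental replicate 2 (0.0793) or Parental replicate 3 (0.0536), and the list had 1 gene higher where log2(TPM + 1) was tested. Of the 22 genes, 6 had no count in any M1 library and 8 had none in any Parental library. CD3D, CD3E and FCGR3A were at 0 in all 6 libraries. The part of other cell types in the matrix, chemokine and class I results was not tested.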

How the data were processed

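Poly(A) RNA of 21 libraries, 3 for each of 7 lines, had been sequenced. The authors deposited, for 60617 genes in each library, expected counts and TPM estimated with RSEM 1.3.2 after cutadapt 2.4 and STAR 2.7.2b on hg38, per the submitters' processing notes; bcl2fastq 2.20.0.422 is named there too. The annotation release and strand setting are not given in the sources used here. Of the gene IDs, 58542 were in GENCODE 29.

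Expected counts were rounded to whole numbers and fitted for all 21 libraries with edgeR 4.0.16 (robust quasi-likelihood test, TMM scaling, its default low-count filter, line as the only term, 14 residual degrees of freedom) in R 4.3.3. P-values were adjusted by the Benjamini-Hochberg method over all 18633 genes tested, and 0.05 was the threshold. TPM served for levels. The edgeR, DESeq2, limma-voom and limma-trend fits were also run on simulated counts for M1 against Parental, and the other steps were not. Alternatives used limma 3.58.1 and DESeq2 1.42.0. Tables and figures used Python 3.11.15, pandas 2.3.3, numpy 2.4.6 and matplotlib 3.10.9.

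Named genes came from 23 lists (462 genes), or were among the 15 largest log2 fold changes in each direction of protein-coding genes that were called, had no overlap between lines in CPM and averaged at least 1 CPM. The comparison and the lists were chosen with earlier results of these data known. Intervals and standard errors cover the spread between libraries and not differences between independent clonings.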

Additional observations from a re-analysis of the deposited data

Results flagged for a closer look

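For 33 genes named here, M1 and M2 were called in opposite directions against Parental, which both comparisons share, and the difference between M1 and M2 was itself called (edgeR, adjusted p under 0.05). M1 was the higher clone in 28 of them. They were drawn from the 261 genes named in this report and not from all 18633 genes tested, so this split describes the named genes. Opposite calls over all genes were not counted. M1 against M2 over all genes gave 4136 higher and 3538 lower. Log2 differences below are M1 minus M2. In 11 genes, those given last, one line held at most 3 reads, and the fitted value there depends on the software's prior count and estimates no fold. Some of these genes lost their call against Parental under an alternative (edgeR unless named). That of PLAU ended with the libraries of both lines alone (adjusted p = 0.182) and without M1 replicate 2 (0.0669), M1 replicate 3 (0.0824), Parental replicate 2 (0.0775) or Parental replicate 3 (0.0783), and that of CCL20 with both lines alone (0.0518) and without the same libraries (0.0516 to 0.0934). The IL24 call ended with both lines alone (0.061). The ITGB4 call ended without M1 replicate 1 (edgeR, adjusted p = 0.0852), M1 replicate 2 (0.0766) or Parental replicate 3 (0.0673) and on log2(TPM + 1) (limma-trend, 0.0933), and that of TP63 on log2(TPM + 1) (limma-trend, 0.234). The OSR1 call ended without Parental replicate 1 (edgeR, adjusted p = 0.0558) or Parental replicate 3 (0.078). Losses of TFAP2C, COL4A6, CD68 and ALDH1A1 are given with the comparison above, and those with the replicate block under the processing.

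Matrix and adhesion genes higher in M1 included GREM1, a BMP antagonist (14.23), FAP (11.46), the membrane protease MMP14 (10.8), decorin gene DCN (7.47), LTBP1 (5.97), the protease inhibitor SERPINE2 (5.63), and the basement membrane collagens COL4A1 (5.15) and COL4A2 (4.54). The plasminogen activator PLAU (4.93) and the hyaluronan receptor CD44 (2.8) were also higher in M1. GREM1 summed to 675688 reads in the M1 libraries and 32 in the M2 libraries, with 21582 in the Parental libraries. Among signals, CXCL1 (12.33), IL24 (10.62), WNT5B (7.81) and CCL20 (5.14) were higher in M1, as were the transcription factors PRRX1 (5.16) and TFAP2C (3.66), the class I gene HLA-F (4.14) and the lysosomal gene CD68 (2.7).

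Lower in M1 were ALDH1A1, a retinal dehydrogenase (-7.97), the basal epithelial factor TP63 (-7.28), the collagen COL4A6 (-4.66) and the hemidesmosomal integrin ITGB4 (-3.5). TP63 summed to 27 reads in M1 and 3366 in M2, with 441 in Parental, so M1 held fewer and M2 more reads than Parental.

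The 11 genes with at most 3 reads in one line were MMP13 (17.37), CXCL6 (16.68), CDH11 (15.39), CSF2 (12.92), MMP1 (9.88), COL1A2 (9.77), CMPK2 (7.26), OSR1 (6.57), OAS1 (6.14) and CSF1R (5.95), all higher in M1, and PODXL2 (-12.02), lower in M1. CDH11 summed to 17061 reads in M1, 0 in M2 and 491 in Parental.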

How the results depend on the processing

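M1 against Parental gave 5052 calls. It gave 5216 without the low-count filter, 4068 for genes averaging at least 1 CPM, 5054 with DESeq2 size factors, 5653 with the DESeq2 Wald test, 5042 with limma-voom, 4034 with the libraries of both lines alone and 3834 with a log2 fold of at least 1 required. On TPM (limma-trend) fewer genes were called lower, 1421 with a pseudocount of 1, 1468 with 0.1 and 1613 without a filter on low values, against 2616 from counts. With mean effective length as a covariate 7592 were called, 4045 of them lower. The cause was not tested. Leaving out 1 library gave 3733 to 4612 calls, 1820 to 2219 higher and 1913 to 2393 lower, the fewest without M1 replicate 2.

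The replicate numbers were not taken as pairs: deviations of same-numbered M1 and Parental libraries from their line means correlated at -0.35, -0.18 and -0.22 over 18633 genes, and those of M1 and M2 at 0.3, 0.08 and 0.52. With the replicate number as a block, the fit of all libraries called 5832 genes and that of both lines alone 2989, with 1599 higher and 1390 lower. In the block fit of both lines alone the calls of CD44 (edgeR, adjusted p = 0.0537), GREM1 (0.0553), CSF2 (0.0704), IL6 (0.166) and IL1B (0.167) were not made. Those of CCL20 (edgeR, adjusted p = 0.202), IL24 (0.262) and PLAU (0.434) were not made either. There 7 and not 16 chemokine and cytokine genes were higher, and 3 and not 5 of the stem cell surface marker and aldehyde dehydrogenase list were higher. M1 against M2 called 8607 genes with the block over all libraries. With the libraries of M1 and M2 alone it called 6386 genes with the block and 5048 without it.

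For M1 against M2, 2259 and 2234 genes were lower on TPM with pseudocounts of 1 and 0.1, against 3538 from counts, and the libraries of these lines alone gave 5048 calls, 2659 of them higher. Leaving out 1 library gave 6679 to 7406 calls, 3592 to 3955 higher and 3087 to 3555 lower.

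Of 261 named genes, 50 lost their call and 19 gained one under at least 1 alternative, and no called direction turned. Some gains came without the low-count filter, where the log2 fold change moved little, as for BMP2 (2.54, against 2.47) and LIF (2.1, against 2.05). Such gains rest on the fitted spread and not on a markedly larger fold. List counts without that filter come from the same fit. With both lines alone the fit had 4 residual degrees of freedom, against 14. Of 46 list counts, 24 moved by over 1.5 times under at least 1 alternative. Low counts in M1 limit the precision of the drops of genes such as CDH1 and GRHL2. How effective length, which differs within M1, moves single genes was not tested beyond that covariate.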

Other observations

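Several genes outside the lists were at 0 in all libraries of one line, and those named here were chosen after their values were seen. MB, encoding myoglobin, had no count in M1 and 4.15, 4.29 and 5.66 TPM in Parental, and MIA, a secreted protein named from melanoma, had no count in M1 and 6.95, 11.2 and 5.25 TPM in Parental. The homeobox factor HOXB7 had 3.11, 2.58 and 2.26 TPM in M1, and CLEC11A, a secreted growth factor of bone, 2.22, 3.63 and 3.49 TPM in M1, with no count in Parental for either. Other genes at 0 in Parental were higher in M2 than in M1 by TPM. EPB41L3, a membrane skeleton protein, averaged 6.8 ± 2.13 TPM in M1 and 80.3 ± 31.4 TPM in M2 (SD, n = 3 each), and CD163L1, a scavenger receptor, 5.41 ± 1.44 TPM in M1 and 21.5 ± 3.47 TPM in M2.

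Protein-coding genes were also counted by chromosome, and the chromosomes named here were chosen after their values were seen. Over all 14335 protein-coding genes tested, 14.8% were higher and 14.8% lower in M1. On chromosome 8, 29.3% of 491 genes were lower in M1 than in Parental (median log2 fold change -0.33), and on chromosome 18, 28.1% of 203 genes (-0.27). On chromosome 22, 26.8% of genes were higher (0.34), and on chromosome 14, 21.4% of 462 (0.22). Chromosome 13 stood at medians of 0.38, 0.24 and -0.1 in the M1 libraries and -0.53, -0.49 and -0.9 in the M2 libraries, on the log2 scale against the Parental mean and relative to the median of all genes in that library, for genes averaging at least 10 CPM over the M1 and Parental libraries. Replicate 3 of each clone was the lowest there and on chromosome 18, with -0.19, -0.2 and -0.59 in M1 and -0.25, -0.12 and -0.6 in M2. Chromosome 22 stood at 0.11, 0.24 and 0.57 in M1 and 0.22, 0.21 and 0.5 in M2, highest in replicate 3 of each clone. Chromosome 8 stood at -0.23, -0.3 and -0.48 in M1 and -0.03, 0.03 and -0.15 in M2, lowest in replicate 3. Chromosome 14 stood at 0.32, 0.22 and 0.1 in M1, so the size of these shifts varied among libraries.

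Among 1088 antisense genes tested, 82 were higher in M1 (7.5%) and 177 lower (16.3%), and among 1039 lincRNA genes 125 were higher (12.0%) and 122 lower (11.7%), beside 13.1% higher and 14% lower of all genes. Without a stated strand setting, reads of an antisense gene and of its partner cannot be told apart.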
